A study of Homo sapiens with 12 samples.

Results

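The cholesterol genes described here were HMGCS1, IDI1, FDFT1, SQLE and DHCR7, which encode enzymes of cholesterol synthesis, and SREBF2 and INSIG1, which encode regulators of that pathway. They were chosen by symbol and not by their values, and they are 7 of the 31585 gene loci in the deposited table. Each symbol stood on 1 locus, and 7 of 7 were expressed highly enough to be among the 15055 loci tested. No member is a receptor or carrier that brings cholesterol into the cell, so uptake was described from a separate list of genes. A375, a human malignant melanoma cell line, carried either an empty MSCV-IRES-Hygro retroviral vector (Control) or the same vector encoding a mutant of human YAP, with 3 libraries in each of 4 groups. The mutants were YAP-S127A, YAP-S94A,S127A and YAP-2SA, whose sample titles give S127A,S381A. One field of the YAP-2SA records and the study's design text also list S94A, and these libraries were grouped by their titles. In all 4 groups the cells were infected, selected with hygromycin as 1 stable population each, and grown on plastic in medium with fetal bovine serum. The replicates were separate platings of that population, so the p-values measure the spread between platings and not between transductions. The time from plating to lysis differs between the study's design text and its methods.

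Cells make cholesterol from acetyl-CoA through the mevalonate pathway, in which HMG-CoA synthase acts early and squalene is the first committed sterol precursor. The genes of the pathway are switched on together by SREBP-2, the product of SREBF2, a membrane protein that is carried by SCAP from the endoplasmic reticulum to the Golgi and cut there by site-1 and site-2 proteases when sterols are scarce. INSIG1 holds SCAP in the endoplasmic reticulum when sterols are plentiful. YAP is a transcriptional co-activator that acts mostly through TEAD transcription factors. The S127A mutation removes a LATS phosphorylation site that retains YAP in the cytoplasm, S381A removes one that leads to its degradation, and S94A prevents its binding to TEADs.

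RefSeq windows upstream of the annotated starts were found for 5 of 7 members, on GRCh38.p14. The 200 bases before the start are shown for 3 of the members that were higher in A375-YAP-2SA cells and for SREBF2. The windows run 5′ to 3′ on the strand of the gene, and capitals mark a CCAAT box on either strand (CCAAT or ATTGG), an element that often lies beside binding sites of SREBPs. Where a gene had several windows, the first that held this box is shown, so its presence there is no finding. HMGCS1 is at chr5:43313413-43313612 on the minus strand, INSIG1 at chr7:155297678-155297877 on the plus strand, DHCR7 at chr11:71448394-71448593 on the minus strand and SREBF2 at chr22:41832905-41833104 on the plus strand.
HMGCS1 promoter: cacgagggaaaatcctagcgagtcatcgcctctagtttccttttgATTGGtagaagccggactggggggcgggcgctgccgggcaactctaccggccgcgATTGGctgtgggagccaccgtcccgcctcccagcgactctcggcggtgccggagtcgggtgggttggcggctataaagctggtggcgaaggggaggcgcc
INSIG1 promoter: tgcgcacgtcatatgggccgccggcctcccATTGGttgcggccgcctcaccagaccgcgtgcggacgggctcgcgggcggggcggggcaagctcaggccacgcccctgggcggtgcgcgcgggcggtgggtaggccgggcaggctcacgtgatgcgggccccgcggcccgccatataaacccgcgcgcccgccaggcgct
DHCR7 promoter: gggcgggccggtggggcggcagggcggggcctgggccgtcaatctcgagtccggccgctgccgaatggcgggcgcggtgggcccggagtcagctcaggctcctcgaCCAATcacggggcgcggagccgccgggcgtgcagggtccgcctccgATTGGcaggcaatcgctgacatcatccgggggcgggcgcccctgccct
SREBF2 promoter: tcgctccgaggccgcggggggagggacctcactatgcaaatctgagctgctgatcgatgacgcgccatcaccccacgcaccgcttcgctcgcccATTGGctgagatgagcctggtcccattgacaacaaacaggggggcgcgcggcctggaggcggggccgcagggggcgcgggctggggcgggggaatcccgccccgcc

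The 5 members had 9 windows, of which 6 held a CCAAT box within 250 bases before the start, and each of the 5 members had at least 1 such window. Of 35116 windows of all genes searched in the same way, 32.0% held CCAAT on either strand. In SREBF2 it lay at positions -106 to -102 from the start, in INSIG1 at -170 to -166, in HMGCS1 at -155 to -151 and -100 to -96, and in DHCR7 at -94 to -90 and -48 to -44. The TEAD motif GGAATG was found on either strand in 0 of the 5 members with a window and in 11.9% of all windows. HMGCS1 and INSIG1 also held TATAAA at -29 to -24 and at -27 to -22, which 10.7% of windows did. These matches describe the letters of a short window and show no binding.

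The values are log2(FPKM + 1), where FPKM is the number of sequenced fragments scaled by transcript length and by the mapped reads of the library. It carries no read count, so the depth behind each value is unknown. Between 20161 and 20656 loci per library were above 0. The targeted gene YAP1 had between 130 and 187 FPKM in the 9 libraries with a YAP vector. It had 34.1 and 33.0 FPKM in Control replicates 1 and 2 but 172 FPKM in the library labelled Control replicate 3. The YAP1 level of this library goes against its label. CTGF, a canonical YAP target, had 12.7, 12.2 and 12.7 FPKM in the Control libraries, the library labelled replicate 3 being like the others. It averaged 11.2 FPKM in YAP-S94A,S127A, 24.8 FPKM in YAP-S127A and 57.9 FPKM in YAP-2SA cells. CYR61, also a canonical target, had 15.3, 15.6 and 19.75 FPKM in the Control libraries. Here the library labelled replicate 3 was above the YAP-S94A,S127A libraries (13.1 to 17.0 FPKM) and below the YAP-S127A libraries (36.1 to 41.7 FPKM). CYR61 averaged 106 FPKM in YAP-2SA cells. Without the library labelled Control replicate 3, 0 of the 7 cholesterol genes passed the test below in YAP-S127A or in YAP-S94A,S127A against Control, as with it. Of the melanoma markers, VIM was between 563 and 792 FPKM while TYR and DCT were at most 0.0303 FPKM. The 9 melanoma markers summed to between 1155 and 1174 FPKM in Control and between 614 and 662 in YAP-2SA cells. PMEL, MLANA, TYR and DCT were too low to be tested. Of the others, 4 were called lower (SOX10, S100B, S100A1 and VIM) and 1 higher (MITF) in YAP-2SA against Control cells. Over all loci 19.5% were lower and 22.9% were higher in that comparison. The fibroblast markers COL1A1 and PDGFRA summed to between 41.5 and 44.6 FPKM in Control and between 66.4 and 76.6 in YAP-2SA cells. PDGFRA was read from a locus that also lists FIP1L1 and LNX1, at 38.5 to 47.6 FPKM over all libraries. That level cannot be assigned to PDGFRA alone. The leukocyte marker PTPRC was at or near 0 (at most 0.0119 FPKM). Keratinocyte markers summed to between 6.24 and 7.62 FPKM in Control and between 1.92 and 2.07 in YAP-2SA cells, and leukocyte and endothelial markers to at most 0.708 and 0.593 FPKM in any library. The part of these marker shifts in the results below was not tested, and in RNA of whole cultures a smaller share of expressing cells and less RNA per cell cannot be told apart.

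In A375-YAP-2SA cells, 5 of 7 cholesterol genes were higher than in Control cells and 0 were lower. Differences were tested with limma, a linear model that shares the estimate of spread between loci, and called when the Benjamini-Hochberg adjusted p over all loci was under 0.05. HMGCS1 changed most, to 2.89 times its Control level, and SQLE, INSIG1, DHCR7 and FDFT1 were between 1.32 and 1.65 times their Control levels. IDI1 and SREBF2 did not pass the test. Over all 15055 loci, 22.9% were higher and 19.5% were lower in the same comparison. The 3 YAP-2SA libraries lay above the 3 Control libraries for 5 of the 7 genes and for 28.0% of all loci. The median log2 fold change was 0.52 for the 7 genes and 0.01 for all loci. Without the library labelled Control replicate 3, 6 of 7 were higher, SREBF2 being the gene added. The plot of the 7 genes by library shows the separate values.

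**Figure D1:**
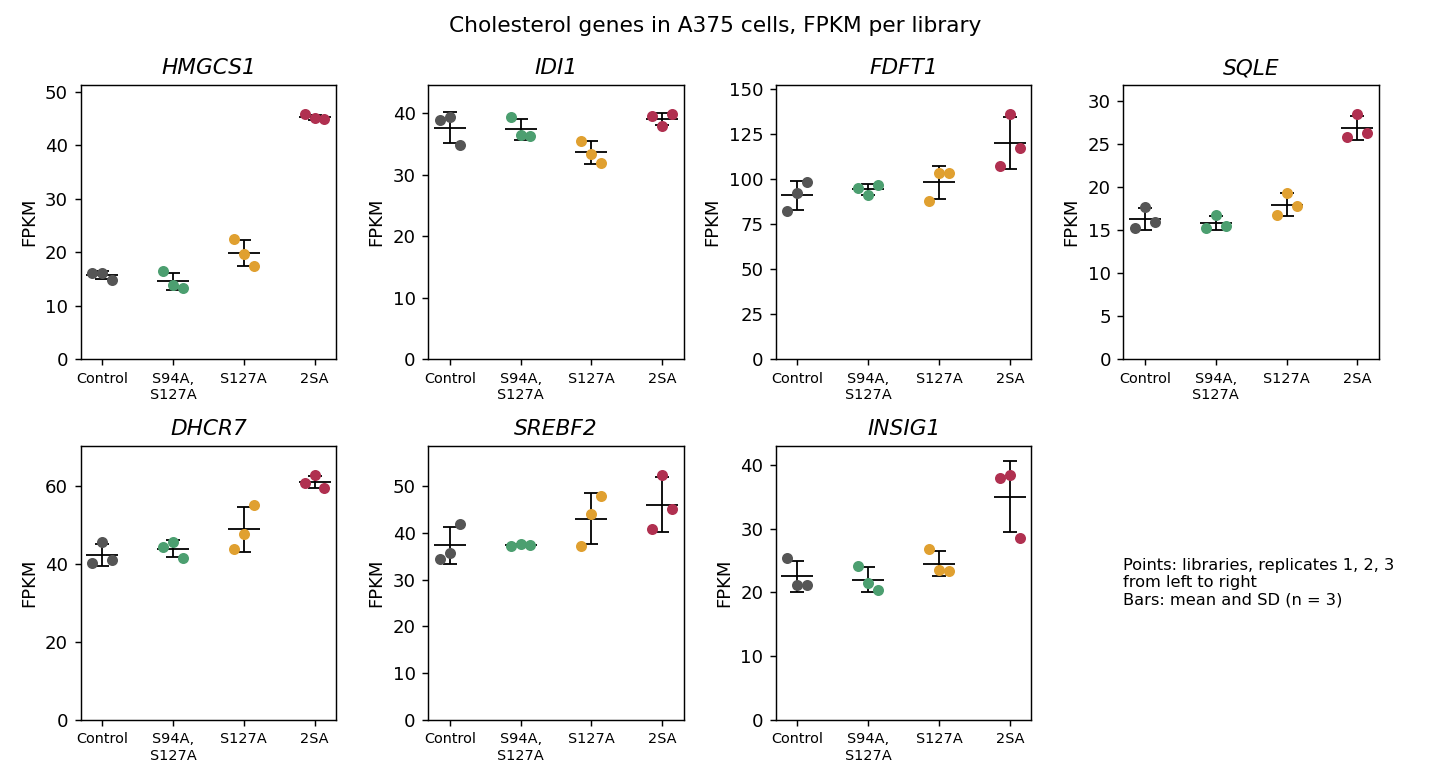
FPKM of each cholesterol gene (vertical axis, from 0) in the 3 libraries of Control, YAP-S94A,S127A, YAP-S127A and YAP-2SA cells; points are libraries and bars are the mean and SD (n = 3). The 3 YAP-2SA libraries lie above the 3 Control libraries for HMGCS1, FDFT1, SQLE, DHCR7 and INSIG1, with HMGCS1 near 45.2 against 15.7 FPKM, and overlap them for IDI1 and SREBF2.

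HMGCS1, the cytosolic HMG-CoA synthase that condenses acetoacetyl-CoA with acetyl-CoA, has its gene at chr5:43287572-43313614 (GRCh37, minus strand). By replicate, its FPKM was 16.2, 16.0 and 14.8 in Control, 16.4, 13.9 and 13.3 in YAP-S94A,S127A, 22.4, 19.7 and 17.4 in YAP-S127A and 45.8, 45.01 and 44.9 in YAP-2SA cells. The YAP-2SA libraries were the highest and lay within 1 FPKM of each other, the YAP-S127A libraries lay between them and the rest, and the Control and YAP-S94A,S127A libraries overlapped. Control cells averaged 15.7 ± 0.766 FPKM (SD, n = 3), against 45.2 ± 0.468 FPKM (SD, n = 3) for YAP-2SA cells. On the log2(FPKM + 1) scale, where changes of low values come out smaller than they are, the log2 fold change was 1.47 (standard error 0.09, adjusted p = 4.1e-07 by limma). HMGCS1 was the only member to pass an adjusted p under 0.05 together with a ratio of group mean FPKM over 2, as 7.59% of all loci did upward.

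SQLE, the squalene epoxidase that catalyses the first oxygenation step of sterol synthesis, has its gene at chr8:126010739-126034525 (plus strand). By replicate, its FPKM was 15.3, 17.7 and 15.9 in Control, 15.3, 16.8 and 15.4 in YAP-S94A,S127A, 16.8, 19.4 and 17.8 in YAP-S127A and 25.8, 28.5 and 26.3 in YAP-2SA cells. The YAP-2SA libraries lay above all others, and the other 3 groups overlapped. In YAP-2SA against Control the log2 fold change of SQLE was 0.69 (standard error 0.07, adjusted p = 2.4e-05 from limma).

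FDFT1, or squalene synthase, joins farnesyl diphosphate units into squalene, and has its gene at chr8:11653082-11696904 (plus strand). By replicate, its FPKM was 82.4, 92.2 and 98.5 in Control, 95.1, 91.0 and 96.8 in YAP-S94A,S127A, 87.8, 104 and 103 in YAP-S127A and 108, 136 and 117 in YAP-2SA cells. It was the most highly expressed of the 7 genes in every group, and its YAP-2SA libraries lay above all others, the lowest by a narrow margin. Against Control, the log2 fold change in YAP-2SA was 0.39 (standard error 0.10, adjusted p = 0.00801 from limma).

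DHCR7, which reduces 7-dehydrocholesterol to cholesterol in the last step of one branch of the pathway, has its gene at chr11:71139239-71163914 (minus strand). Its FPKM was 40.3, 45.6 and 41.1 in Control, 44.5, 45.8 and 41.5 in YAP-S94A,S127A, 43.8, 47.6 and 55.3 in YAP-S127A and 60.8, 62.9 and 59.6 in YAP-2SA cells. The YAP-2SA libraries lay above all others, while YAP-S127A replicate 3 stood above the other 2 YAP-S127A libraries. DHCR7 had a log2 fold change of 0.52 in YAP-2SA against Control (standard error 0.08, adjusted p = 0.000437 from limma).

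IDI1, an isomerase that interconverts isopentenyl and dimethylallyl diphosphate, has its gene at chr10:1085092-1095059 (minus strand). Its FPKM was 38.8, 39.3 and 34.8 in Control, 39.3, 36.5 and 36.3 in YAP-S94A,S127A, 35.5, 33.4 and 31.9 in YAP-S127A and 39.5, 37.8 and 39.8 in YAP-2SA cells. The YAP-2SA and Control libraries overlapped, and the lowest values of the gene were in YAP-S127A cells. For YAP-2SA against Control the log2 fold change was 0.05 (95% confidence interval -0.08 to 0.19, adjusted p = 0.529 from limma), an interval that excludes a change of the size measured for SQLE, INSIG1 or DHCR7.

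INSIG1, the endoplasmic reticulum protein that retains SCAP and is itself a target of SREBPs, has its gene at chr7:155089486-155101945 (plus strand). Its FPKM was 25.4, 21.1 and 21.2 in Control, 24.2, 21.5 and 20.4 in YAP-S94A,S127A, 26.8, 23.5 and 23.3 in YAP-S127A and 38.0, 38.5 and 28.6 in YAP-2SA cells. All 3 YAP-2SA libraries lay above all others, but replicate 3 was well below the other 2. INSIG1 had, in YAP-2SA against Control, a log2 fold change of 0.60 (standard error 0.12, adjusted p = 0.00226 from limma).

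SREBF2, which encodes SREBP-2, has its gene at chr22:42229109-42303310 (plus strand). Its FPKM was 34.5, 35.7 and 41.9 in Control, 37.2, 37.8 and 37.5 in YAP-S94A,S127A, 37.2, 44.1 and 47.9 in YAP-S127A and 40.8, 52.5 and 45.1 in YAP-2SA cells. The library labelled Control replicate 3 was above the lowest YAP-2SA library, so that the groups overlapped. Between YAP-2SA and Control the log2 fold change was 0.29 (95% confidence interval 0.05 to 0.54, adjusted p = 0.0561 from limma). Without the library labelled Control replicate 3 it was 0.38, and the adjusted p from limma was 0.0290. SREBF2 also passed the test without YAP-S127A replicate 1 (adjusted p = 0.0364), YAP-S127A replicate 3 (0.0463) or YAP-2SA replicate 1 (0.0300). The microRNA gene MIR33A lies within SREBF2 on the same strand and SREBF2-AS1 on the other, and IDI1 likewise overlaps IDI2-AS1. HMGCS1, FDFT1 and DHCR7 each overlap an unnamed gene on the other strand. Whether the counting used strand is not given in the sources used here, so reads of these genes and their antisense partners may not be told apart.

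Because FPKM is scaled to length, the levels of the members can be ordered. In Control cells the order was FDFT1 at 91.0 FPKM, DHCR7 at 42.3, IDI1 at 37.6, SREBF2 at 37.4, INSIG1 at 22.6, SQLE at 16.3 and HMGCS1 at 15.7. The libraries of IDI1 and SREBF2 overlapped, as did those of SQLE and HMGCS1, and the other neighbours did not. In YAP-2SA cells the order was FDFT1 at 120 FPKM, DHCR7 at 61.1, SREBF2 at 46.1, HMGCS1 at 45.2, IDI1 at 39.0, INSIG1 at 35.01 and SQLE at 26.9, where SREBF2 overlapped HMGCS1 and IDI1 overlapped INSIG1. HMGCS1 thus stood 7 of 7 in Control and 4 of 7 in YAP-2SA cells. Summed over the 7 genes, the libraries had between 253 and 268 FPKM in Control, between 261 and 272 in YAP-S94A,S127A, between 270 and 297 in YAP-S127A and between 358 and 401 in YAP-2SA cells.

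In A375-YAP-S127A cells, 0 of 7 cholesterol genes passed the limma test against Control, in a comparison in which 4.56% of loci were higher and 1.75% were lower. At an unadjusted p under 0.05 there were 3 from the same fit, HMGCS1 and DHCR7 with higher and IDI1 with lower means. Over all loci, 2953 of 15055 had an unadjusted p under 0.05 in that fit. The HMGCS1 libraries of YAP-S127A cells lay above those of Control without overlap, which was so for 11.6% of all loci, with a log2 fold change of 0.32 (standard error 0.09, adjusted p = 0.0786 from limma). Without YAP-S127A replicate 3 the value was 0.40 and passed, with an adjusted p of 0.0325 from limma. With a ratio over 2 as well, 0 of 7 members and 2.07% of all loci were higher. Among the other members, the log2 fold changes were 0.20 for DHCR7, 0.20 for SREBF2, 0.13 for SQLE, 0.12 for INSIG1, 0.11 for FDFT1 and -0.16 for IDI1, with adjusted p between 0.185 and 0.665.

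In A375-YAP-S94A,S127A cells, 0 of 7 genes passed the limma test against Control, and 0 had an unadjusted p under 0.05, against 661 of 15055 loci. Few loci differed in this comparison, 0.0864% of all loci being higher and 0.093% lower. The log2 fold changes of the members lay between -0.10 (HMGCS1) and 0.05 (FDFT1 and DHCR7), and the libraries overlapped for each of the 7 members, whereas 4.7% of all loci had higher libraries without overlap and 0.0797% passed the test with a ratio over 2. The 95% confidence interval of the difference was -0.31 to 0.10 for HMGCS1 and -0.20 to 0.13 for SQLE, which excludes a rise of the size measured in YAP-2SA cells for either gene. The 3 comparisons against Control share its libraries, so their values are set side by side and are not independent of each other.

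The mutants were also compared directly. Between YAP-2SA and YAP-S127A cells, 6 of 7 cholesterol genes were called higher in YAP-2SA and 0 lower, against 18.3% and 14.5% of all loci. For the same 6 genes the libraries did not overlap, which held for 24.1% of all loci, and 1 of 7 (HMGCS1) also had a ratio over 2, against 5.17%. Log2 fold changes were 1.16 for HMGCS1 (adjusted p = 5.1e-06), 0.56 for SQLE (adjusted p = 0.000199), 0.49 for INSIG1 (adjusted p = 0.0109), 0.32 for DHCR7 (adjusted p = 0.0122), 0.29 for FDFT1 (adjusted p = 0.0464) and 0.21 for IDI1 (adjusted p = 0.0240), all by limma. SREBF2 had a log2 fold change of 0.10 (95% confidence interval -0.15 to 0.34, adjusted p = 0.558 from limma) with overlapping libraries. The mean of IDI1 was 33.6 FPKM in YAP-S127A cells, against 37.6 in Control and 39.0 in YAP-2SA cells. The FDFT1 call was lost without YAP-S127A replicate 1, 2 or 3, YAP-2SA replicate 2 or 3, Control replicate 2 or any 1 YAP-S94A,S127A library, with adjusted p between 0.0535 and 0.160. The IDI1 call was lost without YAP-S127A replicate 2 or 3 or YAP-2SA replicate 1 or 3, with adjusted p between 0.0609 and 0.0763 from limma.

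Between YAP-2SA and YAP-S94A,S127A cells, 5 of 7 genes were called higher and 0 lower, against 23.2% and 20.3% of all loci. Libraries did not overlap for 6 of 7 genes and were higher so for 29.7% of all loci, and 1 of 7 (HMGCS1) also had a ratio over 2, against 7.81%. Log2 fold changes were 1.58 for HMGCS1, 0.73 for SQLE, 0.64 for INSIG1, 0.47 for DHCR7 and 0.34 for FDFT1. For SREBF2 it was 0.28 (adjusted p = 0.0613 from limma), although all 3 YAP-2SA libraries lay above the YAP-S94A,S127A libraries, and for IDI1 it was 0.06 (adjusted p = 0.457). The FDFT1 call was lost without YAP-S94A,S127A replicate 2 or YAP-2SA replicate 2, with adjusted p of 0.0546 and 0.0627.

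Between YAP-S127A and YAP-S94A,S127A cells, which differ in the TEAD-binding residue, HMGCS1 was the only 1 of 7 members to pass the test, against 6.36% of all loci higher and 4.31% lower. Its log2 fold change was 0.42 (standard error 0.09, adjusted p = 0.0161 by limma), with its YAP-S127A libraries above those of YAP-S94A,S127A, which was so for 15.2% of all loci. With a ratio over 2 as well, 0 of 7 members and 2.54% of all loci were higher. The adjusted p was 0.0520 without YAP-S127A replicate 1, 0.0563 without YAP-S94A,S127A replicate 2 and 0.0708 without YAP-S94A,S127A replicate 3. For the other members the log2 fold changes lay between -0.15 (IDI1) and 0.19 (SREBF2).

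Among 15 other sterol synthesis genes analysed here, an incomplete list, 9 were higher and 0 were lower in YAP-2SA than in Control cells. Over all loci 22.9% were higher and 19.5% lower. The median log2 fold change of the 15 genes was 0.56, and the counts were 9 and 0 without the library labelled Control replicate 3. The 3 with the largest change were ACAT2, MSMO1 and MVD. ACAT2, a cytosolic thiolase that makes the acetoacetyl-CoA used by HMGCS1, had 27.8, 30.2 and 26.1 FPKM in the Control libraries and 58.6, 58.3 and 58.3 FPKM in the YAP-2SA libraries, with a log2 fold change of 1.03 (adjusted p = 4.0e-07 from limma). MSMO1, a methylsterol monooxygenase, had a log2 fold change of 0.76 (adjusted p = 0.000449 from limma), and its libraries had between 12.3 and 12.9 FPKM in Control and between 19.7 and 25.7 in YAP-2SA cells. MVD, the decarboxylase that makes isopentenyl diphosphate, had 8.69, 10.8 and 9.91 FPKM in the Control libraries and 16.0, 18.1 and 15.1 FPKM in the YAP-2SA libraries, with a log2 fold change of 0.69 (adjusted p = 0.000366 from limma). For each of these 3 enzymes the YAP-2SA libraries lay above the Control libraries. The others that rose, listed here after their values were seen, were MVK, FDPS, LSS, LBR, NSDHL and EBP, by log2 fold changes of 0.41 to 0.64. PMVK, CYP51A1, TM7SF2, HSD17B7, SC5D and ERG28 did not pass the test. The called genes were spread along the pathway among others that were not called, as the plot in pathway order shows.

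**Figure D2:**
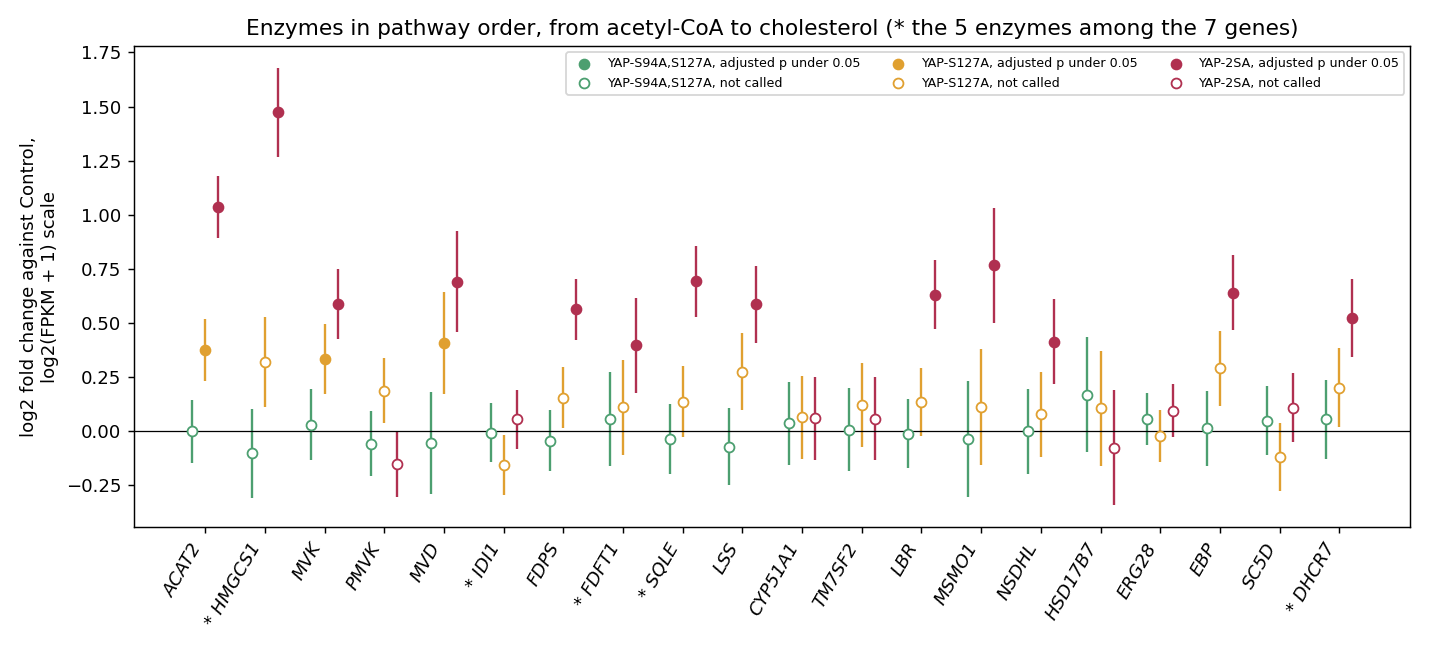
Log2 fold change against Control on the log2(FPKM + 1) scale (vertical axis) for 20 sterol synthesis genes in pathway order, in YAP-S94A,S127A, YAP-S127A and YAP-2SA cells. Bars are 95% confidence intervals from limma, filled points passed an adjusted p under 0.05, and asterisks mark the 5 member enzymes. HMGCS1 (1.47) and ACAT2 (1.03) are the highest YAP-2SA points, and the YAP-2SA points of IDI1 (0.05) and of 6 other genes are open.

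In YAP-S127A against Control cells, 3 of these 15 genes were higher and 0 were lower, against 4.56% and 1.75% of all loci. MVD had a log2 fold change of 0.41 (adjusted p = 0.0496 from limma), ACAT2 0.37 (adjusted p = 0.00620) and MVK, the mevalonate kinase, 0.33 (adjusted p = 0.0220). ACAT2 was the only 1 of these 3 still called without the library labelled Control replicate 3, MVD and MVK having adjusted p of 0.107 and 0.0760 from limma. MVK was also lost without YAP-S127A replicate 1 (0.0741) or 3 (0.0754), and MVD without any 1 of 10 libraries. In YAP-S127A against YAP-S94A,S127A cells, 6 of 15 were higher and 0 were lower, against 6.36% and 4.31% of all loci. The largest changes were those of MVD (0.46), ACAT2 (0.38) and LSS, the lanosterol synthase (0.35). ACAT2 kept its call with any 1 library left out. MVD was lost without YAP-S127A replicate 3 or any 1 YAP-S94A,S127A library (adjusted p between 0.0525 and 0.0687 from limma), and LSS without YAP-S127A replicate 2 or 3 or YAP-S94A,S127A replicate 1 or 3 (between 0.0526 and 0.0851). The count of 6 fell to 1 without YAP-S127A replicate 3, YAP-S94A,S127A replicate 1 or YAP-S94A,S127A replicate 3, and to 2 without YAP-S94A,S127A replicate 2. In YAP-S94A,S127A against Control cells, 0 of 15 passed the test from limma, and 0 had an unadjusted p under 0.05. Against YAP-S127A and YAP-S94A,S127A, YAP-2SA cells had 9 of 15 higher in both comparisons, and 1 and 0 lower. Over all loci 18.3% were higher and 14.5% lower against YAP-S127A, and 23.2% and 20.3% against YAP-S94A,S127A. With 1 library left out, the count of 9 ranged from 6 to 9 against YAP-S127A and stayed at 9 against YAP-S94A,S127A. ACAT2 (0.66), MSMO1 (0.65) and LBR, a sterol reductase of the nuclear envelope (0.50), had the largest log2 fold changes against YAP-S127A.

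Of 7 genes of the machinery that carries and cuts SREBPs, 0 were higher and 2 were lower in YAP-2SA than in Control cells (0 and 1 without the library labelled Control replicate 3), with a median log2 fold change of -0.15. Over all loci 22.9% were higher and 19.5% were lower. The count of 2 ranged from 1 without YAP-2SA replicate 1 to 4 without YAP-S127A replicate 3. MBTPS2 and MBTPS1, the site-2 and site-1 proteases, had log2 fold changes of -0.42 and -0.22 (adjusted p = 0.00337 and 0.0199 from limma). The MBTPS1 call was lost without the library labelled Control replicate 3 (adjusted p = 0.0610) or YAP-2SA replicate 1 (0.0772). MBTPS2 had between 15.0 and 16.1 FPKM in the Control libraries and between 10.7 and 12.9 in the YAP-2SA libraries, which did not overlap.

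Of 12 genes of cholesterol uptake and intracellular transport analysed here, 6 were higher and 3 were lower in YAP-2SA than in Control cells. Over all loci 22.9% were higher and 19.5% lower. The median log2 fold change of the list was 0.06, and the counts were 5 and 3 without the library labelled Control replicate 3. LIPA, the lysosomal acid lipase that frees cholesterol from its esters, had 32.8, 42.5 and 44.04 FPKM in the Control libraries and 101, 97.8 and 90.8 FPKM in the YAP-2SA libraries, with a log2 fold change of 1.27 (adjusted p = 0.000209 from limma). MYLIP, a ubiquitin ligase that limits lipoprotein uptake, had a log2 fold change of -0.81 (adjusted p = 0.000292 from limma), with 6.24, 6.20 and 7.07 FPKM in the Control libraries and 3.43, 2.79 and 3.60 FPKM in the YAP-2SA libraries. Both genes had YAP-2SA libraries clear of the Control libraries. LRP1, an endocytic receptor, had 4.70 and 4.18 FPKM in Control replicates 1 and 2 but 22.1 FPKM in the library labelled Control replicate 3, and 19.5, 33.1 and 25.1 FPKM in the YAP-2SA libraries. Its log2 fold change was 1.58 (adjusted p = 0.0311 from limma), and 2.27 with an adjusted p of 0.000519 without that library, while the adjusted p was 0.107 without Control replicate 1, 0.112 without Control replicate 2, 0.0967 without YAP-2SA replicate 2 and 0.0698 without YAP-2SA replicate 3.

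Genes that share precursors or regulators with the sterol pathway differed among themselves. Of 10 fatty acid synthesis genes, 6 were higher and 2 were lower in YAP-2SA than in Control cells, against 22.9% and 19.5% of all loci. Their median log2 fold change was 0.30, and the counts were the same without the library labelled Control replicate 3. The desaturases FADS1 and FADS2 had log2 fold changes of 0.77 and 0.70 (adjusted p = 4.2e-07 and 0.000158 from limma), whereas ACSS2, which makes acetyl-CoA from acetate, had one of -1.06 (adjusted p = 0.000102). In YAP-S127A cells 3 of these genes were higher than in Control and 0 were lower, against 4.56% and 1.75% of all loci. The 3 were FADS2 (0.42), FADS1 (0.30) and SCD, the stearoyl-CoA desaturase (0.26). FADS2 was lost without Control replicate 1 or 2 or YAP-S127A replicate 1 or 3 (adjusted p between 0.0503 and 0.0981 from limma), and SCD without Control replicate 2 (0.0530). When only the libraries compared were fitted, FADS1, FADS2 and SCD were all lost (0.0697, 0.155 and 0.135). Of 8 genes of the non-sterol branch that makes dolichol, ubiquinone and protein prenyl groups, 2 were higher (DHDDS and COQ2) and 1 was lower (FNTB) in YAP-2SA cells, close to the shares of 22.9% and 19.5% over all loci. FNTB was read from a locus that also lists CHURC1 and CHURC1-FNTB, so its call cannot be assigned to FNTB alone. COQ2 was lost without any 1 of 7 libraries, with an adjusted p of up to 0.144 (without the library labelled Control replicate 3). Of 5 tested genes of LXR receptors and cholesterol efflux, 0 were higher and 1 was lower, the efflux transporter ABCA1, with a log2 fold change of -0.61 (adjusted p = 0.00344 from limma), again close to the share over all loci and the same without the library labelled Control replicate 3. In YAP-S94A,S127A against Control cells, 0 genes of these lists passed the test, and 1 fatty acid synthesis gene had an unadjusted p under 0.05. The plot of the lists shows the spread within each.

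**Figure D3:**
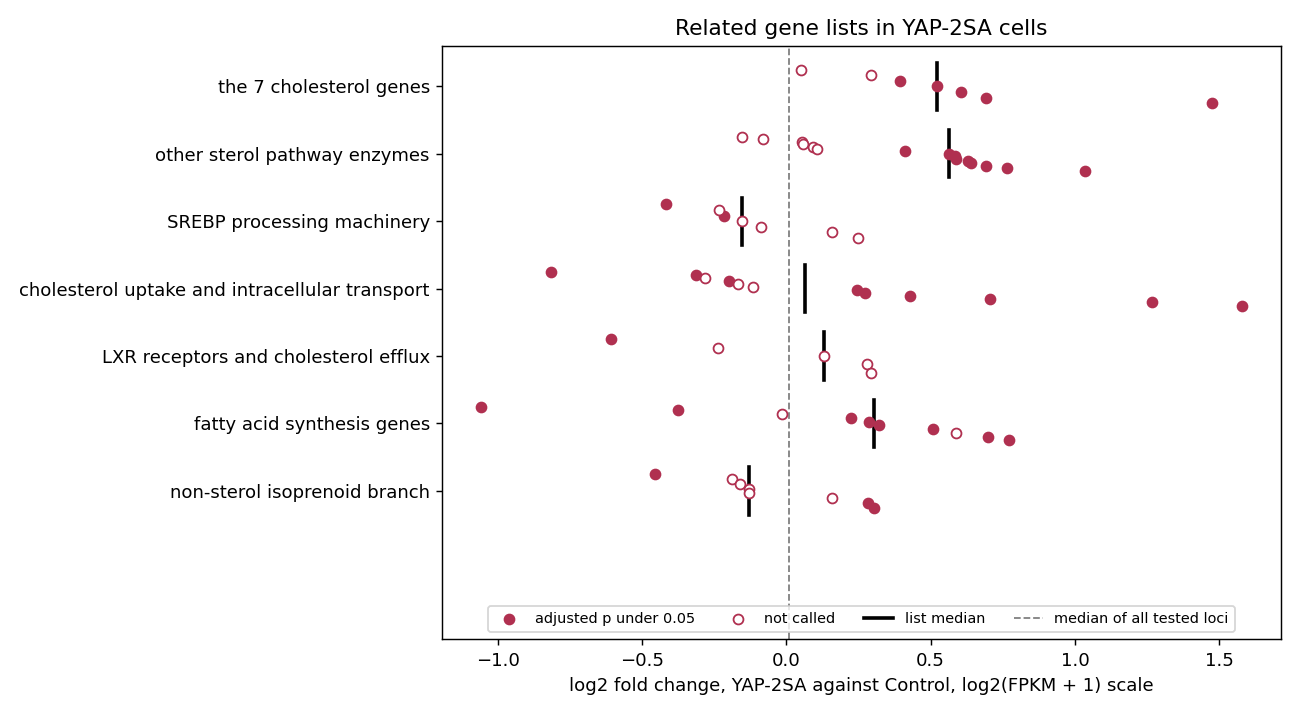
Log2 fold change in YAP-2SA against Control cells on the log2(FPKM + 1) scale (horizontal axis) for each tested gene of 7 lists; filled points passed an adjusted p under 0.05, short vertical lines are list medians and the dashed line is the median of all 15055 loci (0.01). The medians are 0.52 for the 7 cholesterol genes and 0.56 for the other sterol synthesis genes (drawn as other sterol pathway enzymes), against -0.15 for the SREBP machinery and 0.06 for uptake and transport.

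The pattern of each member over the 12 libraries was set against 13500 tested loci with a symbol by Pearson's r on log2(FPKM + 1), as a description in which all points share the 4 groups and their libraries. The loci most like HMGCS1 were OXSR1 (r = 0.994), THSD7B (0.992) and KIAA1671 (0.991), and those most like SQLE were ANXA5 (0.994), PDGFB (0.988) and a locus listed as hCG_1997999 and SCN8A (0.986). For DHCR7 they were PFKP (0.981) and CAPNS1 (0.975), for INSIG1 CENPV (0.983), FAM101B (0.950) and SEPHS1 (0.945), for FDFT1 a locus of DHRS13 and FLOT2 (0.961), SEPT8 (0.960) and DNAJB5 (0.951), for SREBF2 DKK3 (0.973), SLC43A1 (0.929) and ACTN4 (0.925), and for IDI1 CDC123 (0.950), PRKRIR (0.932) and TEX10 (0.909). Among the members themselves, HMGCS1 and SQLE had the highest r (0.950), followed by SQLE and DHCR7 (0.928) and HMGCS1 and INSIG1 (0.917). Many other loci were closer to a member than these. SQLE ranked 597 among the loci most like HMGCS1, and HMGCS1 ranked 399 for SQLE. DHCR7 ranked 827 for SQLE, and SQLE ranked 281 for DHCR7. HMGCS1 ranked 62 for INSIG1, but INSIG1 ranked 1148 for HMGCS1. FDFT1 ranked 20 for SREBF2 (r = 0.892), and SREBF2 ranked 91 for FDFT1. IDI1 stood apart, with r between -0.353 (SREBF2) and 0.386 (HMGCS1).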

How the data were processed

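RNA of 12 libraries of A375 cells was sequenced by the authors (TruSeq chemistry, 3 libraries in each of 4 groups). The submitters' processing notes name bcl2fastq 2.15.0, Bowtie2 2.0.0, TopHat2 2.0.4, Cufflinks 2.0.2 and hg19, and the authors deposited 1 table of log2(FPKM + 1) per locus and library. No read counts or depths are given. Of 31588 entries, 3 identical ones were removed. Samples were grouped by their titles. The members, gene lists and tests were chosen with earlier results of these data known.

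The deposited log2 values were fitted with limma 3.58.1 in R 4.3.3, using all 12 libraries, 1 mean per group, no covariate and an intensity trend, over the 15055 loci that reached an FPKM of 1 in 3 or more libraries. P-values were two-sided and Benjamini-Hochberg adjusted over these loci, and a gene was called at an adjusted p under 0.05. Folds of mean FPKM were computed without a pseudocount. The fit was tested on simulated data. Where a symbol stood on several loci, that of highest mean was used. The loci of CYR61, CYP51A1, TM7SF2, MYLIP, ELOVL5, FNTB and PDGFRA also list other symbols, so their values may hold other genes. Named were the 7 members, YAP1, CTGF, CYR61, the 3 called genes with the largest change per list and comparison, and the 3 loci most like each member, and other genes were given by count or range. Some genes of the lists and of the similarity ranking are not reported here, and the counts of the lists leave them out. Alternatives were another pseudocount, looser and stricter filters, quantile normalization or median-ratio scaling, fits without the intensity trend, with a replicate block or on the compared groups alone, stricter call rules, and leaving out each library. Gene positions are from the GENCODE annotation of GRCh37, and promoter windows from RefSeq on GRCh38.p14. Figures were drawn with matplotlib 3.10.9.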

Additional observations from a re-analysis of the deposited data

How the results depend on the processing

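Of the values of the 7 genes under all alternatives, 788 kept their direction and their side of the threshold, 25 lost a call, 12 gained one and 15 turned in sign. With a ratio of group means over 2, the genes called higher fell to 1 in YAP-2SA against Control, against YAP-S127A and against YAP-S94A,S127A, and to 0 in YAP-S127A against YAP-S94A,S127A. With an adjusted p under 0.01 they were 2 in YAP-2SA against YAP-S127A and 0 in YAP-S127A against YAP-S94A,S127A, where a fit of only the libraries compared also gave 0. With the replicate number as a block (replicate block), they were 1 in YAP-S127A against Control (HMGCS1), 2 in YAP-S127A against YAP-S94A,S127A (HMGCS1 and SQLE) and 6 in YAP-2SA against Control and against YAP-S94A,S127A, SREBF2 being added. Over all tested loci, correlations between the deviations of same-numbered libraries lay between -0.149 and 0.163. HMGCS1 and SQLE each kept 1 order of the replicate numbers in every group, and the other members did not. A correlation over all loci cannot decide whether the numbers pair the libraries for single genes. When single libraries were left out, the counts ranged from 5 to 6 in YAP-2SA against Control, 0 to 1 in YAP-S127A against Control, 0 to 0 in YAP-S94A,S127A against Control, 4 to 6 in YAP-2SA against YAP-S127A, 0 to 1 in YAP-S127A against YAP-S94A,S127A and 4 to 6 in YAP-2SA against YAP-S94A,S127A. The cause of these changes was not tested. The values that turned in sign were small: IDI1 in YAP-2SA was -0.0238 against Control and -0.0051 against YAP-S94A,S127A under quantile normalization, and -0.0022 against Control without Control replicate 3, and SREBF2 was -0.0033 in YAP-2SA against YAP-S127A without YAP-S127A replicate 1. With 1 library left out, the ranges were -0.0022 to 0.0843 for IDI1 in YAP-2SA against Control and -0.0033 to 0.178 for SREBF2 in YAP-2SA against YAP-S127A, and in YAP-S94A,S127A against Control -0.0635 to 0.0230 for IDI1, -0.0798 to 0.0202 for SQLE, -0.0150 to 0.112 for FDFT1, -0.0455 to 0.0925 for SREBF2 and -0.0995 to 0.0510 for INSIG1. SREBF2 in the last comparison was -0.0046 under quantile normalization. Quantile normalization also ended the calls of IDI1 (adjusted p = 0.156) and FDFT1 (0.185) in YAP-2SA against YAP-S127A and of FDFT1 against YAP-S94A,S127A (0.0767), from limma. The FDFT1 call against YAP-S127A also ended with no filter (0.0622), no intensity trend (0.0568) and only the libraries compared (0.108). With only the libraries compared, MVD (0.0548) and LSS (0.0961) lost their calls in YAP-S127A against YAP-S94A,S127A, as did ACAT2 (0.0679), MVK (0.129) and MVD (0.193) in YAP-S127A against Control, and SCD lost its call in that comparison under quantile normalization (0.0869). The depth behind each value is unknown.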

Other observations

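ELOVL5, a fatty acid elongase of the fatty acid synthesis list, had 172 FPKM in YAP-2SA replicate 2 and 179 FPKM in YAP-S127A replicate 2, and between 40.7 and 51.9 FPKM in the other 10 libraries. Its log2 fold change in YAP-2SA against Control was 0.59 with a standard error of 0.57 and an adjusted p of 0.445 from limma, so that it was counted as not called. ABCG4, an efflux gene that was below the expression filter, was at 18.1 FPKM in YAP-S94A,S127A replicate 2 and 5.52 FPKM in YAP-S127A replicate 3 and at most 0.521 FPKM in the others. Both genes were chosen after their values were seen.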
